A study of Mus musculus with 12 samples.

Results

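The genes Carns1, Tstd1, Nacc2, Mss51, Klc3 and Sp6 were followed because they lay among those with the largest differences between the effects of losing Mettl3 and of losing Nudt21 in resting naive CD4 T cells. They are 6 of the 32285 genes of the table and 6 of the 12511 genes that passed a filter on low values. Transcripts were measured by RNA sequencing in naive CD4+ T cells that had been sorted from lymph nodes and spleen of C57BL/6 mice, in 12 libraries of 5 groups. The Mettl3 set has wild type cells at 0 h (3 libraries), wild type cells kept for 48 h with anti-CD3/CD28 antibodies (3 libraries) and untreated Mettl3-/- cells at 0 h (2 libraries, numbered 1 and 3). The Nudt21 set has untreated wild type cells (2 libraries) and untreated Nudt21-/- cells (2 libraries), both at 0 h. No knockout was measured at 48 h. The driver of the deletions, the age of the mice and whether libraries of a group came from separate mice are not given in the sources used here. By the sex-linked genes Xist and Ddx3y, each group of the Mettl3 set holds female and male libraries, so it came from more than 1 mouse. The p-values therefore describe the spread among these libraries, which may be technical in the Nudt21 set and in part in the Mettl3 set.

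Mettl3 is the catalytic subunit of the enzyme that writes N6-methyladenosine (m6A), a mark on messenger RNA that is bound by reader proteins and often shortens the life of the transcript. Nudt21 is the small subunit of cleavage factor I, which binds TGTA-containing RNA near the ends of transcripts and favours the use of distal polyadenylation sites. The series holds the loss of each factor in its own set, beside its own wild types. A gene that moves in opposite directions in the knockouts thus differs between these comparisons. Because the sets also differ in sex and in markers of other cell types, such a difference cannot be assigned to the factors alone. The 6 genes belong to no common pathway. Carns1 is carnosine synthase, which joins beta-alanine to histidine. Tstd1 is a small rhodanese-domain protein that handles sulfane sulfur. Nacc2 is a BTB-domain transcriptional repressor that recruits the NuRD corepressor. Mss51 is a zinc-finger protein known from the mitochondria of skeletal muscle. Klc3 is a light chain of the kinesin-1 motor, known from sperm tails. Sp6 is a zinc-finger transcription factor of the Sp family, known from tooth and skin epithelium.

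The last 30 annotated bases of each gene's longest-reaching coding transcript are shown because Nudt21 acts where transcripts are cut. They were taken from GENCODE M21 transcripts on mm10, are given 5′ to 3′ on the transcript's strand, and carry the poly(A) signal AATAAA in capitals.
Carns1 (chr19:4164324-4164353, minus strand): tacctaAATAAAgacttgttaactagtgaa
Tstd1 (chr1:171420323-171420352, plus strand): aaactcaAATAAAaagtacacttaatgaag
Nacc2 (chr2:26055535-26055564, minus strand): ttacagaatAATAAAgtcaattcaaaccca
Mss51 (chr14:20482867-20482896, minus strand): tcacagttcaAATAAAgatgtttaaaccaa
Klc3 (chr7:19394437-19394466, minus strand): ggtcaccccacagccccgctgttcagagct
Sp6 (chr11:97024705-97024734, plus strand): tttttatgcaacAATAAAgtcatcaaccaa
The signal stood in 5 of the 6 ends and not in that of Klc3, against 51.1% of 21814 protein-coding genes searched the same way on the transcript strand. In the last 100 bases, TGTA occurred once in Tstd1 and 2 times in Nacc2, and the other 4 genes had none, where 50.7% of genes had at least 1. GGACT, a common core of m6A sites, occurred 9 times in the Carns1 transcript of 3968 bases (2.27 per kb), 5 times in Nacc2 (0.749 per kb), 5 times in Sp6 (1.41 per kb), 2 times in Klc3 (1.1 per kb), once in Mss51 (0.548 per kb) and not in Tstd1, whose transcript has 551 bases. The median gene had 1.02 per kb. Letters that match a motif are a description of these windows and not measured sites.

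RefSeq promoter entries on GRCm38.p6 were found for 4 of the 6 genes, and the 250 bases before the start are printed for Mss51 and Klc3, which were both higher in the Nudt21 knockout. The GC box GGGCGG, read on both strands, is in capitals where it occurs.
Mss51 (chr14:20496902-20497151, minus strand): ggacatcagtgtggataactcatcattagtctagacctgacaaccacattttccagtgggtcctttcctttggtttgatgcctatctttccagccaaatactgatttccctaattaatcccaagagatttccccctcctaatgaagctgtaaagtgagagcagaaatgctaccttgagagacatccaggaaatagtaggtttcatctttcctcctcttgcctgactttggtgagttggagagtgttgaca
Klc3 (chr7:19404105-19404354, minus strand): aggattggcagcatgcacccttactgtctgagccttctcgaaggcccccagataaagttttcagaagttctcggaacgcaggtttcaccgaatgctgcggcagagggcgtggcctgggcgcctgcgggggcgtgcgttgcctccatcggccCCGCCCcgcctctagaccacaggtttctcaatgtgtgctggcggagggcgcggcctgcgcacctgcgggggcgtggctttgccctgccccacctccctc
The Mss51 window held 0 CG dinucleotides and no GC box, and the Klc3 window held 19 CG dinucleotides and 1 GC box on the opposite strand. Nacc2 had 1 GC box and 30 CG dinucleotides at its first start and 3 CG dinucleotides at its second. Tstd1 had 3 CG dinucleotides and 1 TATAAA box. Across 32851 entries the median was 6 CG dinucleotides, 32.7% held GGGCGG and 12.4% held TATAAA.

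Levels are given as FPKM, fragments scaled to transcript length and library total, which can be compared between genes. FPKM sums ran from 345621 to 386983 per library, and the sequencing depth behind a value is unknown, because the table does not allow whole reads to be worked out. The deleted genes were low in the libraries labelled as knockouts. Mettl3 read 5.35 and 6.45 FPKM in the Mettl3 knockouts and 25.3 to 28.7 in their wild types, and Nudt21 read 7.57 and 6.69 in the Nudt21 knockouts and 18.2 and 16.9 in theirs. CD4 T cell markers were high in all libraries. The Mettl3 knockout libraries stood apart from each other, with a correlation of 0.9252 across genes against 0.9906 or more within other groups. Knockout 3 had summed myeloid markers of 340 FPKM (11 genes) against 5.17 in knockout 1, and B cell markers of 886 against 225 (9 genes). Their wild types at 0 h had 9.71 to 11.3 FPKM of myeloid and 189 to 219 of B cell markers. By Xist and Ddx3y, libraries 1 and 2 of the Mettl3 set read as female and library 3 as male, and the Nudt21 libraries all read as male.

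The measured differences between the knockouts chose these genes, so the 0 h values are described without a test. By the absolute difference between knockout effects on the log2(FPKM + 1) scale, Tstd1 ranked 7, Carns1 9, Nacc2 14, Sp6 17, Mss51 45 and Klc3 48 of the 12511 genes. The genes ranked 4 to 6 were Igkv5-39 (-3.40), Gm39375 (3.31) and Igkv6-23 (-2.93), and those ranked 49 to 51 were Ighv3-6 (-1.996), Gbp2 (-1.995) and Traj34 (1.98), each value being the Nudt21 effect minus the Mettl3 effect. Of these 6 genes, 3 are immunoglobulin variable segments and 1 is a T cell receptor joining segment. In bulk RNA a change in the number of cells of a type and a change in RNA per cell cannot be told apart.

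**Figure D1:**
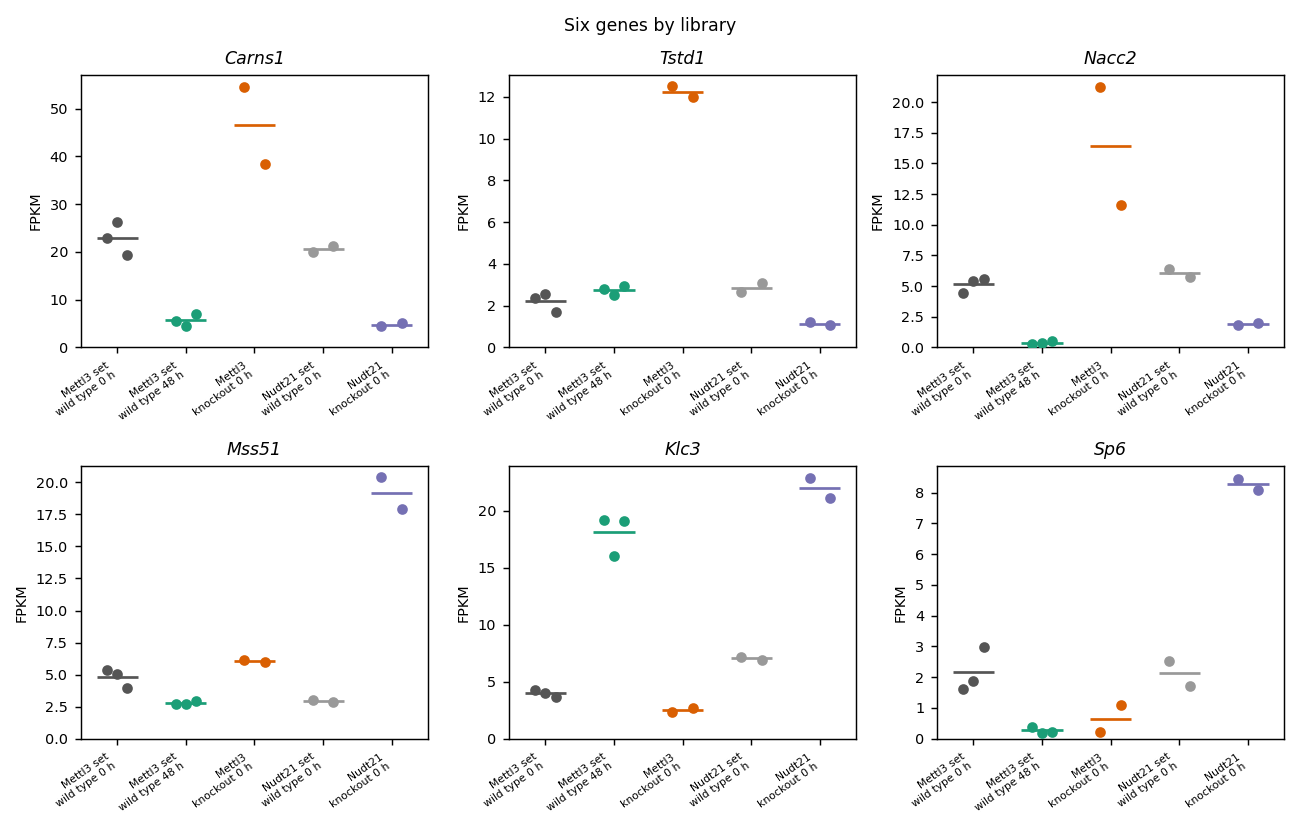
Level of each gene in FPKM (vertical axes, linear from 0) in the 12 libraries, with 1 point per library, grouped by genotype and time, and a bar at each group mean. Carns1, Tstd1 and Nacc2 are highest in the Mettl3 knockout, and Mss51, Klc3 and Sp6 are highest in the Nudt21 knockout.

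Carns1, Tstd1 and Nacc2 were higher in the Mettl3 knockout and lower in the Nudt21 knockout. Carns1, the carnosine synthase (ENSMUSG00000075289, chr19:4164324-4175479 on mm10, minus strand), read 23.0, 26.2 and 19.4 FPKM in the wild types of the Mettl3 set and 54.6 and 38.3 in the Mettl3 knockouts. Its wild types in the Nudt21 set read 19.9 and 21.3 FPKM and the Nudt21 knockouts 4.39 and 5.16. Neither knockout overlapped its own wild type, and the wild types of the sets overlapped each other. The log2 difference from wild type was 0.98 (SE 0.18) without Mettl3 and -1.91 (SE 0.20) without Nudt21. Ordered by group mean, Carns1 ran from 4.77 FPKM ± 0.542 (SD, n = 2) in the Nudt21 knockout through 5.71 ± 1.21 (SD, n = 3) at 48 h and 20.6 ± 0.983 and 22.9 ± 3.38 in the wild types at 0 h to 46.5 ± 11.5 (SD, n = 2) in the Mettl3 knockout, and only the lowest pair and the pair of wild types overlapped.

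Tstd1, the rhodanese-domain protein (ENSMUSG00000103711, chr1:171418872-171420352, plus strand), had the largest difference without Mettl3 of the 6. It read 2.36, 2.54 and 1.71 FPKM in the wild types of the Mettl3 set and 12.5 and 12 in the Mettl3 knockouts. In the Nudt21 set it read 2.64 and 3.08 in the wild types and 1.20 and 1.07 in the knockouts. The libraries of each knockout lay close together, with a mean of 12.3 FPKM ± 0.363 (SD, n = 2) without Mettl3 and 1.13 ± 0.0961 (SD, n = 2) without Nudt21. The log2 differences were 2.06 (SE 0.12) and -0.85 (SE 0.13). The wild type groups, at 2.2, 2.75 and 2.86 FPKM on average, overlapped in neighbouring pairs.

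Nacc2, the BTB repressor (ENSMUSG00000026932, chr2:26055535-26123220, minus strand), read 4.47, 5.41 and 5.59 FPKM in the wild types of the Mettl3 set and 21.2 and 11.6 in the Mettl3 knockouts. Both knockouts lay above every wild type, but they differed from each other by more than the wild types did. The wild types of the Nudt21 set read 6.4 and 5.77 FPKM and the Nudt21 knockouts 1.80 and 2.03. The log2 differences were 1.45 (SE 0.20) without Mettl3 and -1.28 (SE 0.22) without Nudt21. No neighbouring pair of groups overlapped, from 0.402 FPKM ± 0.0834 (SD, n = 3) at 48 h to 16.4 ± 6.81 (SD, n = 2) in the Mettl3 knockout.

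Mss51, Klc3 and Sp6 were higher in the Nudt21 knockout. Without Mettl3, Klc3 and Sp6 lay below every 0 h wild type of that set, and Mss51 lay a little above every one. Mss51, the muscle mitochondrial protein (ENSMUSG00000021815, chr14:20482867-20496901, minus strand), read 3.01 and 2.83 FPKM in the wild types of the Nudt21 set and 20.4 and 17.9 in the knockouts. In the Mettl3 set it read 5.39, 5.08 and 3.95 in wild types and 6.17 and 5.98 in knockouts. The log2 differences were 2.36 (SE 0.12) without Nudt21 and 0.29 (SE 0.11) without Mettl3, so both had the same sign. The wild type groups at 0 h did not overlap, at 4.80 FPKM ± 0.758 (SD, n = 3) and 2.92 ± 0.123 (SD, n = 2).

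Klc3, the kinesin light chain (ENSMUSG00000040714, chr7:19394437-19404104, minus strand), read 7.18 and 6.91 FPKM in the wild types of the Nudt21 set and 22.9 and 21.1 in the Nudt21 knockouts. In the Mettl3 set it read 4.31, 4.02 and 3.67 in wild types and 2.33 and 2.73 in knockouts. The log2 differences were 1.51 (SE 0.11) and -0.50 (SE 0.10). All 5 groups of Klc3 were separate, in the order Mettl3 knockout (2.53), wild type of the Mettl3 set (4), wild type of the Nudt21 set (7.05), 48 h (18.1) and Nudt21 knockout (22.0 FPKM). The wild types at 0 h thus differed between the sets by a ratio of 1.76.

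Sp6, the Sp-family factor (ENSMUSG00000038560, chr11:97013394-97024734, plus strand), read 2.54 and 1.71 FPKM in the wild types of the Nudt21 set and 8.46 and 8.08 in the Nudt21 knockouts. In the Mettl3 set it read 1.62, 1.89 and 2.97 in wild types and 0.222 and 1.09 in knockouts. Both Mettl3 knockouts lay below every wild type, and by ratio they differed from each other more than in the other 5 genes (log2 difference from wild type -0.96, SE 0.24). The difference without Nudt21 was 1.58 (SE 0.26). The wild types of the sets overlapped, at 2.16 and 2.13 FPKM on average.

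In all, 6 of 6 genes had Mettl3 knockout libraries outside the range of their wild types, where 48.6% of the genes tested did, and 6 of 6 had Nudt21 knockout libraries outside that range, where 75.3% of genes did. By direction, 27.4% of genes lay wholly higher and 21.2% wholly lower without Mettl3, and 31.1% higher and 44.2% lower without Nudt21. These counts follow from how the 6 genes were chosen, and nothing is read from them. At an adjusted p under 0.05 over all genes, limma called 28.9% of genes in the Mettl3 comparison (16.8% higher, 12% lower), 27.8% in the Nudt21 comparison (8.73% higher, 19% lower) and 25.3% for the difference between them (7.44% higher and 17.8% lower in the Nudt21 effect).

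**Figure D2:**
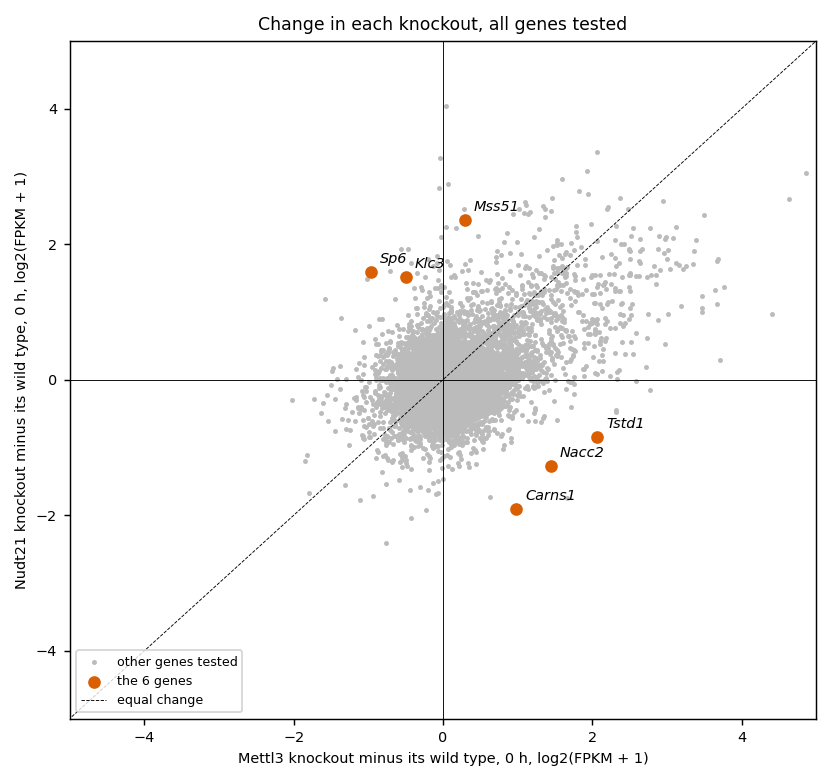
Difference from wild type at 0 h in log2(FPKM + 1) in the Mettl3 knockout (horizontal) and the Nudt21 knockout (vertical), with 1 point for each of the 12511 genes tested and the 6 genes labelled; the dashed line marks equal change. Carns1, Tstd1 and Nacc2 lie to the lower right, Klc3 and Sp6 to the upper left, and Mss51 (0.29, 2.36) lies just right of the vertical axis.

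Each Mettl3 knockout library lay outside the range of its wild types for all 6 genes, so its direction within sex was fixed beforehand. Only the sizes are given, with 1 knockout library in each sex. The ratio to same-sex wild type was 2.22 (female) and 1.97 (male) for Carns1, 5.12 and 7.02 for Tstd1, and 4.29 and 2.07 for Nacc2. For Mss51 it was 1.18 and 1.51, for Klc3 0.559 and 0.745, and for Sp6 0.126 and 0.366. The Nudt21 set holds 1 sex only.

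Markers of other cell types also moved with the knockouts. Summed myeloid markers were 39.5 to 87.7 FPKM in the Nudt21 wild types and 194 to 293 in the knockouts, erythroid and platelet markers 254 to 335 and 476 to 511 (9 genes), markers of NK, CD8 and gamma-delta T cells 23.3 to 32.1 and 122 to 137 (9 genes), and B cell markers 251 to 290 and 396 to 528. Their part in the changes without Nudt21 was not tested. Mettl3 knockout 3 had 340 FPKM of myeloid and 264 of erythroid and platelet markers, against 5.17 and 5.22 in knockout 1. Resting wild types of the Mettl3 set had 9.71 to 11.3 and 17.3 to 28.6 FPKM. Both ranges lay below those of the Nudt21 wild types, so the sets also differed in these markers without a knockout. In knockouts 1 and 3, Mss51 read 6.17 and 5.98 FPKM, Klc3 2.33 and 2.73, and Sp6 0.222 and 1.09. Carns1 read 54.6 and 38.3 FPKM there, Nacc2 21.2 and 11.6, and Tstd1 12.5 and 12. Markers of the tissues these genes are known from were mostly low. Of 10 skeletal muscle markers, 8 were under 0.5 FPKM in every library, as were 6 of 8 testis germ cell markers, whose sum was 0.617 to 1.05 FPKM in resting wild types of the Mettl3 set and 2.35 to 3.17 at 48 h. Of 8 epithelial markers, 4 were under 0.5 FPKM in every library. Krt5 and Krt14, which define basal epithelium, are among these 4 and were listed at 0 throughout. The 8 epithelial markers summed to 1.86 to 1.87 FPKM in the Nudt21 wild types and 5.07 to 5.53 in the Nudt21 knockouts, in both mostly from Epcam. In the Mettl3 set that sum was 1.3 to 1.56 FPKM in resting wild types, 0.569 and 7.5 in knockouts 1 and 3, and 8.3 to 10.3 at 48 h. Epcam read 0.392 and 1.1 FPKM in knockouts 1 and 3, so most of the sum in knockout 3 came from other markers. The part of these cells in the values of the 6 genes was not tested.

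**Figure D3:**
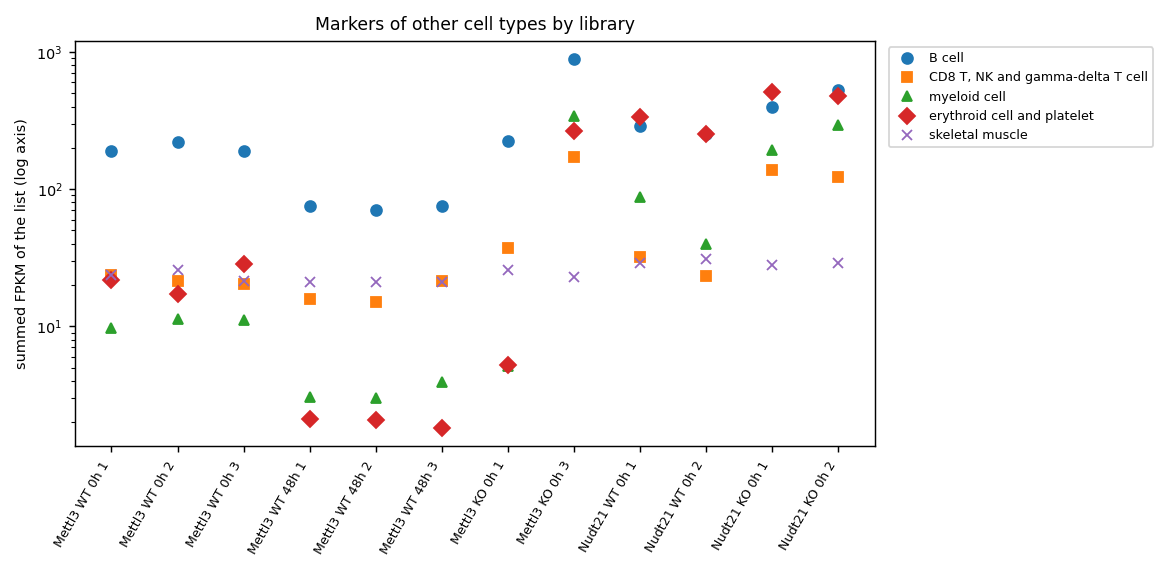
Summed FPKM of 5 marker lists (vertical, log axis) in each of the 12 libraries (horizontal). Mettl3 knockout 3 and the Nudt21 knockouts are high for myeloid markers, Mettl3 knockout 1 is not, and the skeletal muscle sum stays between 20.9 and 31.0. Of the 10 muscle genes, 8 were under 0.5 FPKM in every library, so most of that sum comes from the other 2.

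Activation was the comparison that did not choose these genes, although it shares the 3 wild type libraries at 0 h with the Mettl3 effect. Of the 6 genes, 4 fell, 1 rose and 1 did not pass, where limma called 78.5% of all genes (43.6% higher, 34.9% lower), so a call here is common. Nacc2 fell furthest, from 4.47 to 5.59 FPKM at 0 h to 0.319, 0.401 and 0.486 at 48 h, a log2 change of -2.13 (SE 0.18, limma adjusted p = 1.6e-06). Carns1 fell to 5.55, 4.59 and 6.99 FPKM, by -1.84 (SE 0.16, adjusted p = 2.7e-06, limma). Sp6 fell to 0.395, 0.190 and 0.228 FPKM, by -1.29 (SE 0.21, adjusted p = 0.000263, limma). Mss51 fell to 2.68, 2.74 and 2.95 FPKM, by -0.61 (SE 0.10, adjusted p = 0.000218, limma). For each of these 4 genes all 3 activated libraries lay below all 3 resting ones, a pattern that 37.6% of genes had.

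Klc3 rose to 19.2, 16.0 and 19.1 FPKM, by 1.93 on the log2 scale (SE 0.09, limma adjusted p = 2.46e-08), with all 3 activated libraries above all 3 resting ones, as for 45.3% of genes; 82.9% of genes were separate in either direction. Tstd1 read 2.80, 2.50 and 2.96 FPKM at 48 h, which overlapped its resting values, with a log2 difference of 0.24 (SE 0.11, adjusted p = 0.0665, limma). Without wild type 0 h library 2 the Tstd1 value passed (adjusted p = 0.0281), and with quantile scaling its sign turned (-0.11, adjusted p = 0.382). Side by side, Carns1 and Nacc2 were low both at 48 h and without Nudt21, and Klc3 was high in both. Mss51 and Sp6 were lower at 48 h and higher without Nudt21.

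**Figure D4:**
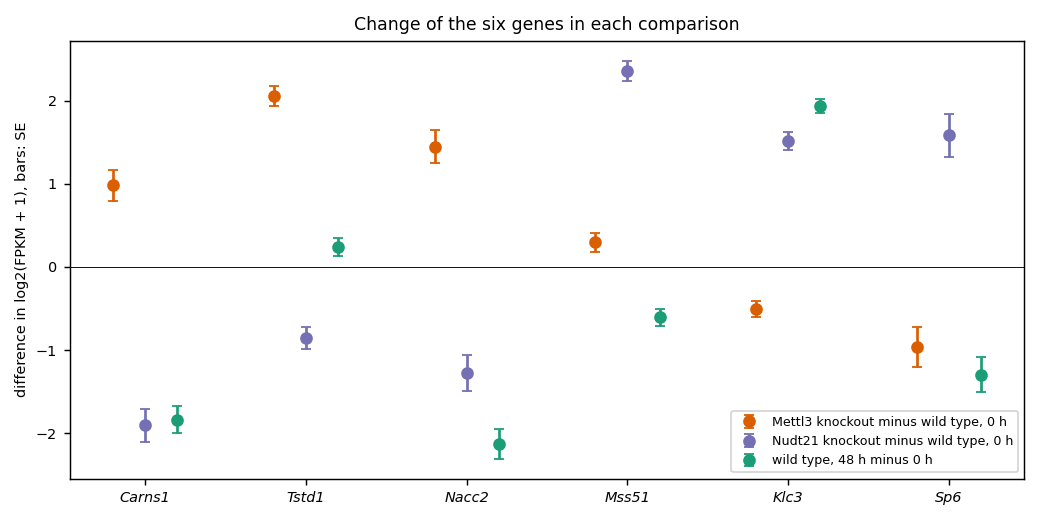
Difference in log2(FPKM + 1) (vertical, bars: SE) of each gene (horizontal) in the Mettl3 knockout, the Nudt21 knockout and wild type cells at 48 h against 0 h. The 48 h point of Klc3 is at 1.93, those of Carns1, Nacc2, Sp6 and Mss51 are below 0, and that of Tstd1 is at 0.24.

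Genes beside or across the 6 loci were described next. Whether counting used strand is not given in the sources used here, so reads of overlapping genes cannot be told apart. Gm17552, an antisense RNA inside Carns1 that shares 1825 exonic bases with it (named after its values were seen), read 6.69 and 7.42 FPKM in the Nudt21 wild types and 1.15 and 1.73 in the knockouts (log2 difference -1.73, limma adjusted p = 0.00203). Without Mettl3 it read 17.3 and 10.2 against 6.63 to 9.56 in wild type, which did not pass (0.63, adjusted p = 0.0761, limma), and it fell at 48 h (-1.63, adjusted p = 5.45e-05, limma). Its values thus ran in the same directions as those of Carns1. Rps6kb2, a ribosomal S6 kinase gene that starts 969 bp beyond the end of Carns1, passed in neither knockout (0.19 and 0.25). Tbc1d10c, a GTPase-activating protein gene 7931 bp upstream, had the opposite signs (-0.29, adjusted p = 0.0188 without Mettl3, and 0.31, adjusted p = 0.0223 without Nudt21, limma). The first of these calls was lost without Mettl3 wild type 1 or knockout 3 (adjusted p up to 0.148 over the alternatives), and the second without either Nudt21 wild type or knockout 2 (up to 0.167). At 48 h Tbc1d10c fell (-1.38, adjusted p = 4.48e-08, limma), as Carns1 did, and Rps6kb2 did not pass (-0.05).

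Usf1, a transcription factor gene on the same strand, overlaps the start of Tstd1 by 271 bp, of which 200 are exonic in both. It was higher in both knockouts (0.34, adjusted p = 0.0068, and 0.28, adjusted p = 0.0257, limma), whereas Tstd1 was 2.06 and -0.85. The Usf1 call without Nudt21 was lost when any 1 of the 4 Nudt21 libraries was left out (adjusted p up to 0.133). Arhgap30, upstream of it, passed in neither knockout, and F11r, downstream, stayed under 1 FPKM. Ubac1, 33787 bp downstream of Nacc2, was at 0.02 without Mettl3 and fell by 0.35 without Nudt21 (adjusted p = 0.00958, limma), a call lost without Nudt21 wild type 2 or knockout 2 (adjusted p up to 0.0696). Lhx3, on its other side, was near 0 in all libraries. At 48 h Usf1 (-0.39, adjusted p = 0.000205, limma) and Arhgap30 (-0.99, adjusted p = 6.3e-07, limma) fell. Ubac1 rose there (0.34, adjusted p = 0.000554, limma), where Nacc2 fell.

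Mss51 lies 2462 bp downstream of Ppp3cb, the calcineurin beta catalytic subunit gene, on the same strand. Ppp3cb read 37.6 and 38.4 FPKM in the Nudt21 wild types and 30.3 and 23.7 in the knockouts, so it fell (-0.49, SE 0.10, limma adjusted p = 0.00572) where Mss51 was higher. Anxa7, an annexin gene 2733 bp beyond the end of Mss51, did not pass without Nudt21 (-0.16, adjusted p = 0.0719, limma). At 48 h Anxa7 rose (0.40, adjusted p = 2.53e-05, limma), where Mss51 fell. Ppp3cb fell at 48 h (-0.19, adjusted p = 0.0497, limma), a call lost in 15 of 22 alternatives. Ercc2, a DNA repair helicase gene, meets Klc3 tail to tail and shares 744 exonic bases with it. Ercc2 read 29.7 and 29.2 FPKM in the Nudt21 wild types and 29.3 and 30.4 in the knockouts (0.02, adjusted p = 0.905, limma), against 1.51 for Klc3. Without Mettl3 it fell (-0.30, adjusted p = 0.024, limma), a call lost without Mettl3 wild type 1 or knockout 3 (adjusted p up to 0.17). Ppp1r13l, a p53-binding protein gene 15903 bp beyond the end of Klc3, fell without Nudt21 from 0.891 and 0.847 FPKM to 0.394 and 0.438 (-0.40, adjusted p = 0.0318, limma). That call was lost without any 1 of the 4 Nudt21 libraries or Mettl3 set wild type 48 h library 1 (adjusted p up to 0.133). At 48 h Ppp1r13l rose (2.79, adjusted p = 6.52e-09, limma), as Klc3 did, and Ercc2 fell (-0.40, adjusted p = 0.000586, limma). Ckm, the muscle creatine kinase gene that starts 671 bp from the start of Klc3 in the other direction, was at most 0.0726 FPKM in any library.

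Gm11532, a noncoding RNA opposite Sp6 that shares 3329 exonic bases with it (named after its values were seen), read 2.34 and 2.52 FPKM in the Nudt21 wild types and 1.90 and 2.65 in the knockouts, where Sp6 read 2.54 and 1.71, then 8.46 and 8.08. It was lower without Mettl3 (-0.55, adjusted p = 0.0298, limma), a call lost without Mettl3 wild type 1, wild type 3 or knockout 3 (adjusted p up to 0.172). Scrn2, 5203 bp downstream, fell without Nudt21 (-0.55, SE 0.09, adjusted p = 0.00249, limma). Sp2, the family member 30434 bp upstream, passed in neither knockout (-0.17 and 0.00). At 48 h Gm11532 (-0.91, adjusted p = 0.000186, limma) and Sp2 (-0.86, adjusted p = 4.34e-07, limma) fell, as Sp6 did. Scrn2 rose there (1.1, adjusted p = 2.98e-07, limma). The size of such values depends on the pseudocount in genes near 1 FPKM: with 0.1 FPKM in place of 1, Gm11532 was at -1 without Mettl3 and Ppp1r13l, a neighbour of Klc3, at -0.91 without Nudt21.

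**Figure D5:**
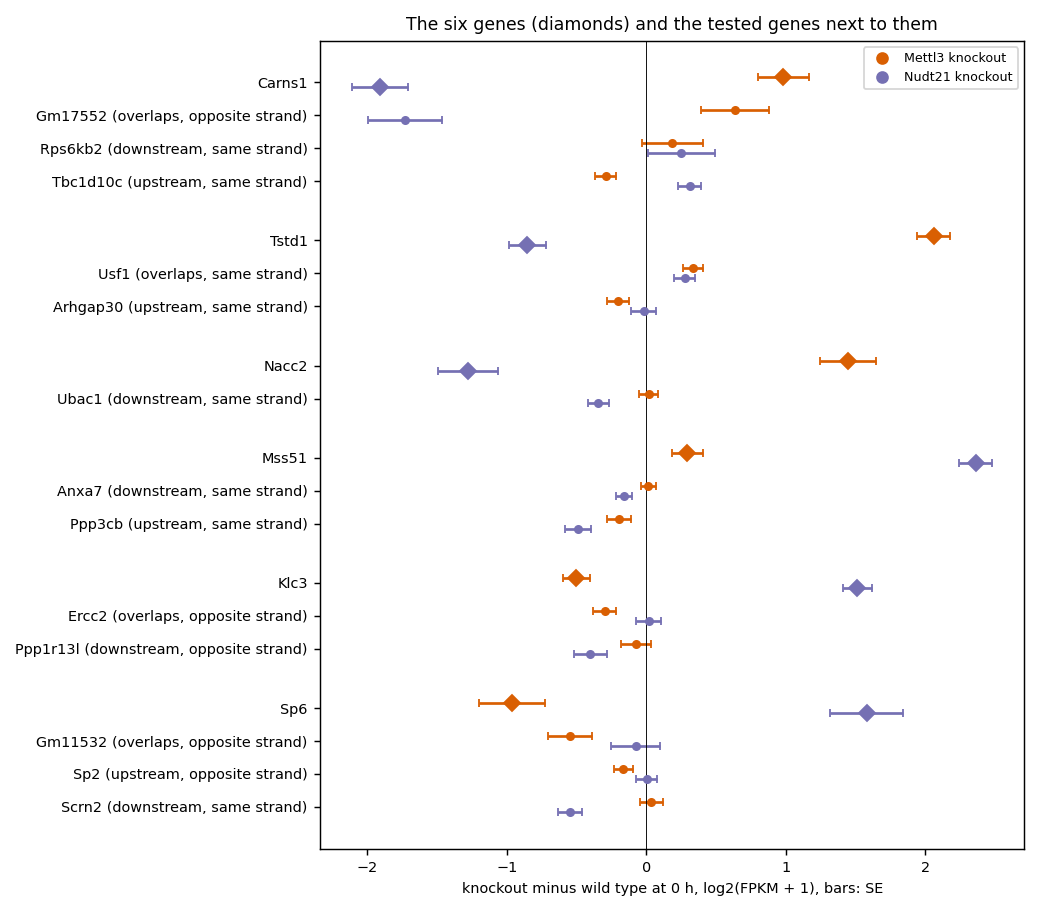
Difference from wild type at 0 h in log2(FPKM + 1) (horizontal, bars: SE) in the Mettl3 and the Nudt21 knockout for the 6 genes (diamonds) and the tested genes next to them (circles), with their side and strand. Gm17552 lies near Carns1 in both comparisons, and the other neighbours lie closer to 0 on this scale.

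Relatives of Nacc2, Klc3, Tstd1 and Sp6 were read as well; the 6 genes were chosen for large differences and their relatives were not. Nacc1, the paralog of Nacc2, passed in neither knockout (0.00 and -0.14) and rose at 48 h (0.90, limma adjusted p = 1.16e-07), when Nacc2 fell. The light chains Klc1, Klc2 and Klc4 read 35.9, 10.9 and 8.9 FPKM on average in resting wild types of the Mettl3 set, against 4 FPKM for Klc3. Klc1 and Klc2 fell without Mettl3 (-0.30, adjusted p = 0.0328, and -0.40, adjusted p = 0.00813, limma). Without Mettl3 knockout 3 both of these calls were lost (adjusted p up to 0.158 and 0.0975), and that of Klc1 also without Mettl3 wild type 1 at 0 h or 48 h or either Nudt21 wild type. Klc1 also fell without Nudt21 (-0.32, adjusted p = 0.0377, limma), a call lost without any 1 of the 4 Nudt21 libraries (adjusted p up to 0.176), and Klc2 did not pass there (0.16). Klc4 passed in neither.

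Of the relatives of Tstd1, Tstd3 passed in both knockouts by limma, at 0.45 (adjusted p = 0.0148) without Mettl3 and -0.51 (adjusted p = 0.0132) without Nudt21. The first was lost without Mettl3 knockout 3 (adjusted p up to 0.126) and the second without Nudt21 wild type 1 or knockout 2 (up to 0.0982). Mpst, a mitochondrial sulfurtransferase, rose without Mettl3 (0.62, adjusted p = 0.00531, limma) and was at -0.16 without Nudt21, which did not pass (adjusted p = 0.412, limma). Tst passed in neither (0.32 and -0.14). Tstd2 fell without Mettl3 (-0.21, adjusted p = 0.0492, limma), a call lost in 14 of 22 alternatives (adjusted p up to 0.273), among them those without Mettl3 wild type 1 or 3 or either knockout. Sp1, Sp2, Sp3 and Sp4 passed in neither knockout and fell at 48 h by 0.23 to 1.31 (the call of Sp1 was lost without wild type 0 h library 3, limma adjusted p = 0.0507), and Sp5, Sp7, Sp8 and Sp9 did not pass the filter on low values.

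Pathway lists around each gene, which leave the gene itself out, were described by counts beside the 28.9% of all genes called without Mettl3 and the 27.8% called without Nudt21. Of 9 tested genes of carnosine and beta-alanine metabolism, 1 rose and 1 fell without Mettl3, and 1 rose and 2 fell without Nudt21. Cndp2, which cleaves carnosine-like dipeptides, rose without Mettl3 (28.1 to 38.1 FPKM on average, 0.42, limma adjusted p = 0.00217). Slc15a2, a transporter of such peptides, fell without Nudt21 from 18.4 and 21.5 FPKM to 2.70 and 3.20 (-2.40, adjusted p = 0.0208, limma), and Gadl1, a decarboxylase that can make beta-alanine, rose (0.63, adjusted p = 0.00802, limma). The Slc15a2 call was lost without any 1 of the 4 Nudt21 libraries (adjusted p up to 0.106), and that of Gadl1 without Nudt21 wild type 2 or knockout 2 (up to 0.0703).

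Of 12 tested sulfurtransferase and sulfide oxidation genes, 5 rose and 2 fell without Mettl3, with a median log2 difference of 0.14 against 0.04 over all genes, and 1 rose and 3 fell without Nudt21 (median -0.15 against -0.05). Cars2, the mitochondrial cysteinyl-tRNA synthetase that also makes persulfides, fell in both (-0.39, adjusted p = 0.00799, and -0.72, adjusted p = 0.000884, limma). Cdo1, cysteine dioxygenase, rose without Nudt21 from 1.32 and 1.18 FPKM to 3.45 and 3.39 (0.97, adjusted p = 0.00177, limma). The NuRD list of 24 genes holds NuRD subunits, BTB factors, and also Mdm2, Mdm4 and Trp53, which are neither. Of these 24 genes, 10 passed without Mettl3, Mdm4 among them, and each of the 10 fell (median -0.13). Without Nudt21, 2 rose and 2 fell, with Mdm4 among those that fell (median 0.03). Chd3, a NuRD helicase, fell from 250 to 152 FPKM on average without Mettl3 (-0.70, adjusted p = 0.00172, limma), and Hdac1, its deacetylase, fell by 0.38 (adjusted p = 0.00282, limma). Mdm4, the p53 inhibitor, fell in both knockouts (-0.64, adjusted p = 0.000422, and -0.83, adjusted p = 0.000241, limma).

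In yeast, Mss51 activates the translation of a cytochrome c oxidase subunit. Of 20 genes for assembly of that complex or for activation of mitochondrial translation, 6 passed without Mettl3 and each of them rose (median 0.19), and 1 rose and 4 fell without Nudt21 (median -0.12). Sco2 (0.92, adjusted p = 0.000241), Coa6 (0.74, adjusted p = 0.000422) and Coa3 (0.44, adjusted p = 0.000692), assembly factors of the complex, rose without Mettl3 by limma and did not pass without Nudt21. Of 9 kinesin-1 genes, 4 passed without Mettl3 and 2 without Nudt21, and each of them fell. Rhot2, a mitochondrial anchor of the motor, fell without Mettl3 (-0.23, adjusted p = 0.00271, limma), and Trak2, its adaptor, fell without Nudt21 (-0.39, adjusted p = 0.00335, limma). Of 14 Sp and Klf factors, 1 rose and 2 fell without Mettl3, and the 3 that passed without Nudt21 fell. Klf7 fell in both (-0.46, adjusted p = 0.00338, and -0.53, adjusted p = 0.00312, limma), as did Klf6 (-0.75, adjusted p = 0.00874, and -0.83, adjusted p = 0.00895, limma), and Klf3 rose without Mettl3 (0.35, adjusted p = 0.00537, limma). The Klf6 call without Nudt21 was lost without Nudt21 wild type 2 or knockout 2 (adjusted p up to 0.0683).

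Fitted on the Mettl3 libraries alone, the NuRD count in that comparison was 1 and the sulfurtransferase and kinesin-1 counts were 0. In that fit or with library weights, the limma calls without Mettl3 of Chd3, Hdac1, Mpst, Cars2, Klf3, Klf6, Klf7, Rhot2, Usf1 and Klc2 did not pass (largest adjusted p from 0.0511 for Chd3 to 0.139 for Klf3), and those of Mdm4, Cndp2, Sco2, Coa6 and Coa3 passed in all 22 alternatives. The calls without Mettl3 of Tstd3, Tbc1d10c, Ercc2, Gm11532, Klc1 and Tstd2 were lost both in that fit and with library weights, and that of Tstd3 also with quantile scaling. Leaving out 1 library moved several of these list counts by more than 1.5 times. Without Nudt21 wild type 2 the count in the Nudt21 comparison was 0 for the carnosine list and 1 for the Sp and Klf factors. Without Nudt21 wild type 1 the count was 2 for the sulfurtransferase list and 1 each for the NuRD and the cytochrome c oxidase lists.

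Over the 12 libraries, which share groups and sets, the genes whose log2 values ran closest to each of the 6 were listed as a description. For Nacc2 they were Arrdc2 (Pearson r 0.991), Dis3l (0.977) and Cdc42se2 (0.977). For Klc3 they were Epcam (0.982), Zap70 (0.968) and Lzic (0.968), and for Carns1 Smad1 (0.966), Parp4 (0.962) and Nin (0.960). Mss51 ran closest to Stam2 (0.962), Ttc36 (0.956) and Impg2 (0.946). Tstd1 ran closest to Tceanc2 (0.958), Tnfaip8l1 (0.953) and Msl3l2 (0.953), and Sp6 to Dync1li2 (0.956), Cd3g (0.952) and Anxa6 (0.949). Among the 6 genes, Carns1 and Nacc2 had r of 0.93, Carns1 and Klc3 -0.97, Nacc2 and Klc3 -0.89, and Mss51 and Sp6 0.77. Klc3 had r of 0.22 with Mss51 and with Sp6. Tstd1 had 0.71 with Carns1, 0.63 with Nacc2, -0.24 with Mss51, -0.63 with Klc3 and -0.60 with Sp6. The other 4 pairs lay between -0.24 (Carns1 and Sp6) and 0.09 (Nacc2 and Mss51). All libraries but those at 48 h were also used to choose the 6 genes. The r values among them in part follow from that choice, and nothing is read from them.

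Values of 5 of these genes follow. Arrdc2 had log2 differences of 0.39 without Mettl3 and -0.45 without Nudt21, against 1.45 and -1.28 for Nacc2. Epcam, a cell adhesion protein, read 1.74 and 1.69 FPKM in the Nudt21 wild types and 4.4 and 4.98 in the knockouts, and 4.23, 4 and 5.09 at 48 h. Zap70, a kinase of T cell receptor signalling, read 144 and 140 FPKM in the Nudt21 wild types and 169 and 183 in the knockouts. Stam2 rose from 7.17 and 7.23 to 13.6 and 12.5 FPKM, and Cd3g, a subunit of the T cell receptor complex, from 280 and 264 to 389 and 416. These genes were picked for their likeness to the 6, and no test is given for them.

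By annotation the 6 genes are protein-coding and lie on 6 chromosomes. Their exonic lengths were 867 bp for Tstd1, 1826 for Mss51, 2647 for Klc3, 3841 for Sp6, 4525 for Carns1 and 7815 for Nacc2, on both sides of the median of 3530 bp for protein-coding genes. In resting wild types of the Mettl3 set, Carns1 stood at the percentile 71.5 of genes tested by level and the other 5 between 22.7 and 34.8. In the group where each was highest, they stood between 44.5 (Sp6, Nudt21 knockout) and 87 (Carns1, Mettl3 knockout).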

How the data were processed

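The authors deposited FPKM per gene for 32285 Ensembl genes in 12 libraries. Per the submitters' processing notes, Bowtie and mm10 were used, without a stated role; the tool behind FPKM, the annotation and the strand setting are not given in the sources used here. Depth per library is unknown from these FPKM values, so no count test or counting interval was made. Positions came from GENCODE M21, which held 32158 of the identifiers.

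Genes of at least 1 FPKM in at least 2 libraries were tested (12511; 19774 set aside). Values were log2(FPKM + 1), so changes of low genes are understated. One model of 5 groups over the 12 libraries was fitted with limma 3.58.1 in R 4.3.3 (trended empirical Bayes, 7 residual degrees of freedom, median prior 2.64), with Benjamini-Hochberg adjustment over all genes tested and a threshold of 0.05, and checked on simulated data. Figures used matplotlib 3.10.9 in Python 3.11.15. Libraries were grouped by their titles.

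The members and lists were chosen with earlier results of these data known. Named genes were the 6 genes, the deleted genes, the nearest and overlapping protein-coding genes, up to 3 passing genes a list by smallest adjusted p, the 3 most alike per gene, 3 genes ranked above and below, and the closest paralogs.

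Same-numbered libraries deviated together in the Mettl3 set (r of 0.261, 0.228 and 0.319 between 0 h and 48 h). In the Nudt21 set r was -0.12. Library 3 was also the male one, so pair and sex cannot be told apart there. Mettl3 knockout 1 had r of 0.143 with wild type 1 and 0.117 with wild type 2 at 0 h, all read as female. The main model held no pair term, and numbers entered as pairs only in the replicate block, 1 of the alternatives. Alternatives were the pseudocount, the filter, the scaling, the libraries fitted, library weights, a replicate block, each library left out, and, chosen after seeing the data, a sex term and crossed Nudt21 numbers.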

Additional observations from a re-analysis of the deposited data

How the results depend on the processing

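All 6 genes kept their direction in both knockouts and in the difference between them under the 22 or 23 alternatives run. These values chose the genes, and knockout and wild type libraries were separate, so leaving out 1 library could not turn a knockout's sign. Leaving out a library of another group does not change an estimate at all. The number of alternatives is therefore not a measure of support for these directions. With activation, Carns1, Nacc2, Mss51, Klc3 and Sp6 passed in all 22 (largest limma adjusted p 0.00158, for Sp6). Tstd1 turned to -0.106 with quantile scaling (adjusted p = 0.382) and passed with library weights (0.0407) and without Mettl3 wild type 0 h library 2 (0.0281). The log2 difference of Sp6 without Mettl3 ran from -1.83 to -0.576. Counts over all genes moved more. Fitted on its own groups, the Mettl3 comparison gave 809 genes in place of 3610. Library weights gave 1094 for Mettl3, 5540 for Nudt21 (3475 as reported) and 2035 for the difference (3164 as reported). Leaving out 1 library gave 9362 to 10128 genes for activation, 2576 to 4728 for Mettl3, 1338 to 4741 for Nudt21 and 1745 to 4404 for the difference. The lowest Nudt21 count came without Nudt21 knockout 2, with 1427 without wild type 2 and 1617 without wild type 1. The replicate block gave 9646, 2728, 2638 and 2361 in the same order and changed no call of the 6 genes with activation; with the Nudt21 numbers crossed it gave 2952 and 2525 for the last pair. Scaling moved the split of higher to lower calls. Median-ratio scaling gave 4967 and 4861 for activation, 1773 and 1996 for Mettl3, 1638 and 1576 for Nudt21, and 1520 and 1326 for the difference, against 5451 and 4371, 2103 and 1507, 1092 and 2383, and 931 and 2233. Quantile scaling gave 4473 and 5310 for activation, 1512 and 2537 for Mettl3, 1014 and 1721 for Nudt21 and 1141 and 1072 for the difference. Under it the Nudt21 calls stayed mostly lower. The cause was not tested. Depth is unknown, so the precision of values under 1 FPKM, such as Sp6 without Mettl3, cannot be given.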
